A study of Homo sapiens with 8 samples.

Results

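The genes described here were the protein-coding genes of human chromosome 10 that had at least 10 counts over all 8 libraries, without 25 genes named on a list of exclusions. Of the 729 protein-coding genes that the annotation places on the chromosome (GRCh38), 130 had fewer counts than that and 574 remained, out of 15028 protein-coding genes of all chromosomes with at least 10 counts and 60617 genes in the table. They span positions 46892 to 133626795 of chromosome 10, and so cover it from end to end. At the limit, PLAC9, PPP1R3C and SFTPD had 10 counts and were included, while SPAG6 had 9 and AKR1C2 and CALHM1 had 8 and were not. The chromosome was selected on the measured change in sgKMT2B against WT, in which most of its genes were lower, so every sgKMT2B value below is a description with no test.

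The RNA came from HEK293T, an embryonal kidney-derived human line, in 4 groups of 2 libraries. WT cells carried no knockout, and the other groups, labelled sgKDM5C, sgKDM6A and sgKMT2B, were derivatives of the line in which a guide RNA had been aimed at the named gene. No group carried any other treatment that the labels state, and whether a knockout was a single clone or a pool is not given. Nothing says that the libraries of a group came from separate cultures, so the p-values measure the spread between these libraries alone, and that may be technical.

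Most human genes are present in a pair of copies on a pair of chromosomes, and in cultured lines such as HEK293T whole chromosomes or chromosome arms can be gained or lost. RNA output follows the number of gene copies for most genes, so that a gain or loss of a chromosome is seen as a shift of many neighbouring genes, while single genes can lie off that shift through their own regulation. KMT2B is a histone methyltransferase that writes H3K4 methylation, largely at promoters rich in CpG, KDM5C is a demethylase of H3K4, and KDM6A is a demethylase of H3K27. DNA copy number was not measured here.

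Since CpG content is the promoter feature that links to KMT2B, 300 bases around the RefSeq gene start (250 before it and 50 after it, GRCh38.p14) are printed for 4 members the results return to. They are ZNF239, the furthest above its WT level in sgKMT2B among members with a mean of at least 5 CPM (CPM, counts scaled to the library total with TMM factors), DDIT4, a stress-response gene also above it, ZNF503, an abundant member far below it, and CXCL12, which had no count in sgKMT2B. Each is written 5′ to 3′ on the gene's own strand, with every CG in capitals.
ZNF239: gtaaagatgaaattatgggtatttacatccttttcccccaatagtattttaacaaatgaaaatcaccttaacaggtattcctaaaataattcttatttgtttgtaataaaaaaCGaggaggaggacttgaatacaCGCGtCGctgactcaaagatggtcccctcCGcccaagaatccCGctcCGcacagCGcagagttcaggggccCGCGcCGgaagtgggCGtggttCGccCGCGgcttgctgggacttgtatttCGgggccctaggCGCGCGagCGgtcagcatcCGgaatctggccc
DDIT4: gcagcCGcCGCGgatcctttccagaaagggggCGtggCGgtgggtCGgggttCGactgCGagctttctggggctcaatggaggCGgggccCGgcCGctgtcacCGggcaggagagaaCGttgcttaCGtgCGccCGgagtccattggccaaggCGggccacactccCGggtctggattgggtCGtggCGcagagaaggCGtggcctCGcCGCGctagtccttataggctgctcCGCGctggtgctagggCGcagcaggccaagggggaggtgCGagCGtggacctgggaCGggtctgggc
ZNF503: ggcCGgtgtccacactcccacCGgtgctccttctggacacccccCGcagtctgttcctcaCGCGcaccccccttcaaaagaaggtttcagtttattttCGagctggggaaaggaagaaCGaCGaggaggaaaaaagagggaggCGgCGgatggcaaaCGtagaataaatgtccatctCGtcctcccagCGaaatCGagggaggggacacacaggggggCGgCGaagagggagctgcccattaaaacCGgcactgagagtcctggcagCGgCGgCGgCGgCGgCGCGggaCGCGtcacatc
CXCL12: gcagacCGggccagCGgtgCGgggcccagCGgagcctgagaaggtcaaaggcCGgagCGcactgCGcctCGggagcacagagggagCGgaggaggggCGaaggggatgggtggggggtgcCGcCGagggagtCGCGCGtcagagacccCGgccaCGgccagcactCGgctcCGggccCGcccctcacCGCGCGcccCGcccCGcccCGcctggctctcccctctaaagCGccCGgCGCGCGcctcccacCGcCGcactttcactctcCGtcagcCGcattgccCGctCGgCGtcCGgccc
The ZNF239 window lies at chr10:43574567-43574866 on the minus strand and holds 21 CG. The DDIT4 window, at chr10:72273674-72273973 on the plus strand, holds 30, the ZNF503 window, at chr10:75401867-75402166 on the minus strand, holds 26, and the CXCL12 window, at chr10:44385048-44385347 on the minus strand, holds 39. All 4 stand above 14, the median of the 27305 RefSeq promoter windows. Against 27, the median of the tested members with a mean of at least 5 CPM, ZNF239 and ZNF503 lie lower and DDIT4 and CXCL12 higher. These 4 windows are examples, and nothing about the other members is read from them.

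Promoter windows were found by symbol for 499 of the 574 members, and these held a median of 25 CG. CCAAT, searched on both strands, was in 34.9% of the members' windows and in 35.7% of all windows. TATAAA, also on both strands, was in 6.01% of them and in 12.0% of all windows. Members with a mean of at least 5 CPM that lay above WT in sgKMT2B had a median of 25 CG over 77 matched windows, and those below WT had a median of 27 over 293. CCAAT was in 41.6% of the first and 33.8% of the second. A match of letters is a description of the window and not a binding site, and a gene can start elsewhere than the RefSeq position.

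The library totals lay between 15868353 counts (WT replicate 2) and 27591724 (sgKDM6A replicate 2). The targeted gene KMT2B stood at 146 and 137 CPM in WT, at 113 to 128 CPM in the other knockouts, and at 63.0 and 75.5 CPM in sgKMT2B (log2 change -1.03, SE 0.11, adjusted p = 2.44e-05 by edgeR's quasi-likelihood test with Benjamini-Hochberg adjustment). Blood markers summed to at most 0.750 CPM in any library, with CD3E and HBB at 0, and endothelial markers to at most 1.498 CPM. The endothelial sum was 0.065 to 0.165 CPM in WT and 1.29 to 1.498 CPM in sgKMT2B. Most of the latter was VWF, at 1.21 and 1.26 CPM. Epithelial markers summed to 174 to 176 CPM in WT and 315 to 336 CPM in sgKMT2B, and to as little as 71.1 CPM in sgKDM6A. In sgKMT2B the keratin KRT8 was higher (log2 change 2.08), while KRT18 (-0.63) and CDH1 (-1.53) were lower and EPCAM was at -1.10 (adjusted p = 0.0628). Fibroblast markers summed to 22.4 to 53.9 CPM. Of the embryonic kidney markers, CDH2 was present, and PAX8 and LHX1 were at or near 0. The part of these marker differences in the results below was not tested.

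Chromosome 10 contributed less RNA to the sgKMT2B libraries than to any other library. The members took 3.16% and 3.25% of all counts in WT, 3.29% and 3.27% in sgKDM5C, and 3.28% and 3.32% in sgKDM6A, against 2.54% and 2.47% in sgKMT2B. The sgKMT2B mean of 2.51% ± 0.0505 (SD, n = 2) was 0.783 of the WT mean of 3.21% ± 0.0583, and the sgKMT2B libraries did not overlap with any of the other 6. In bulk RNA, fewer cells with the usual level and less RNA in every cell cannot be told apart. The same was seen gene by gene. Over the 424 tested members with a mean of at least 5 CPM, the median of the log2 CPM minus the WT mean was -0.31 and -0.33 in the sgKMT2B libraries, 0.03 and 0.01 in sgKDM5C, and 0.01 and 0.01 in sgKDM6A. Protein-coding genes of the other chromosomes (n = 10249) had a median of 0.02 in both sgKMT2B libraries.

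**Figure D1:**
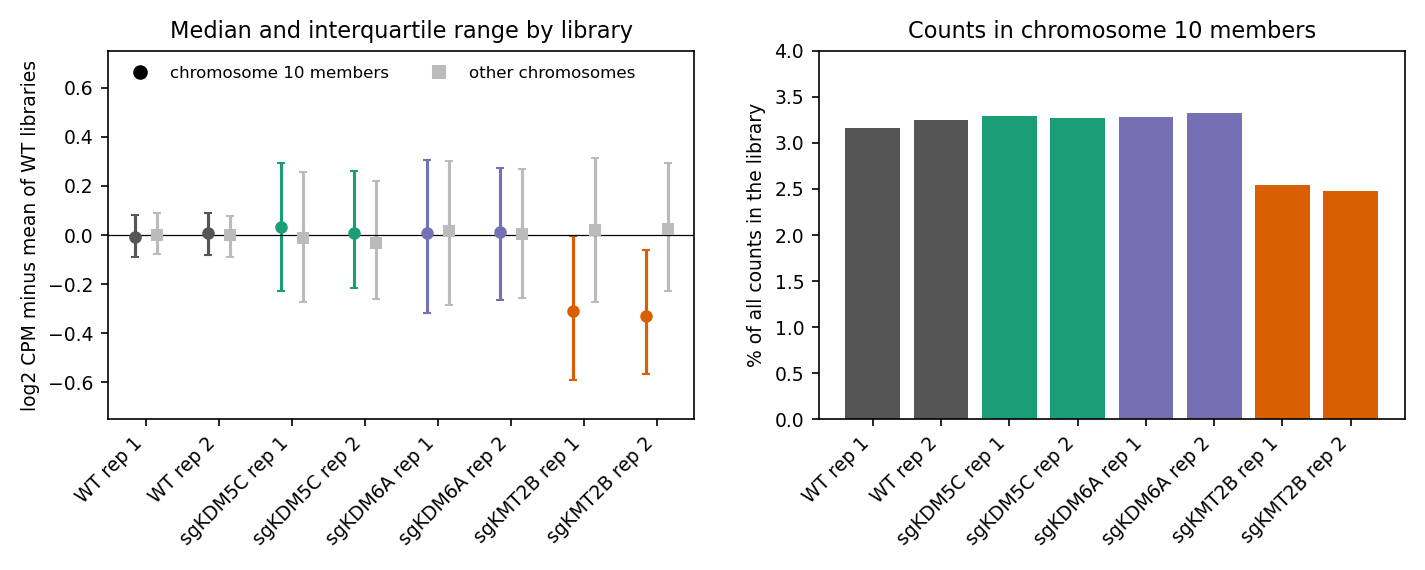
Left, the median (point) and interquartile range (bar) of log2 CPM minus the mean of the WT libraries in each library, for the chromosome 10 members (coloured) and protein-coding genes of other chromosomes (grey); right, the share of each library's counts in the members, in percent. The medians of the sgKMT2B libraries lie at -0.31 and -0.33 and their shares at 2.54% and 2.47%, below the other 6 libraries.

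In sgKMT2B most members lay below WT, by amounts that varied from gene to gene. Of the 574 members, 520 passed the filter on low counts and were tested, and the 54 that did not had at most 53 counts in all. Of those tested, 391 (75.2%) lay below 0 with a median log2 change of -0.32, against 48.9% and a median of 0.01 over 16825 protein-coding and other genes tested off the chromosome. By adjusted p, 209 members were lower and 27 higher in sgKMT2B, where 14.5% and 13.7% of all tested genes were called lower and higher. Without sgKMT2B replicate 1 the counts were 129 and 11, and without replicate 2 the higher count was 17. Because this contrast chose the chromosome, nothing is read from them.

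The members at 5 CPM or more show the form of the shift. Their median log2 change was -0.32, which is 0.800 of the WT level, and 335 of 424 (79.0%) lay below 0. The interquartile range was -0.57 to -0.05, 90% of the members lay between -1.12 and 0.39, and 238 (56.1%) lay within 0.3 of the median. The spread around the median, a median absolute deviation of 0.373, was close in size to the 0.398 of genes off the chromosome, so the whole distribution sat lower without being wider. Members of low abundance scattered most. Of 4 equal classes by CPM, the lowest held 106 members whose interquartile width was 0.846 and of which 35 lay above 0, whereas the other classes had widths of 0.418 to 0.447 and 15 to 23 members above 0. The medians of the classes were alike, from -0.37 to -0.29.

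Chromosome 10 had the second lowest median of the 23 chromosomes in sgKMT2B, after chromosome 13. With the excluded genes kept, its 444 protein-coding genes at 5 CPM or more had a median of -0.33, and chromosome 13 had -0.41 over 189 genes. The next was chromosome 15 at -0.06, and at the other end chromosome 20 had 0.30. In sgKDM5C and sgKDM6A the chromosome 10 medians were 0.03 and 0.01.

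**Figure D2:**
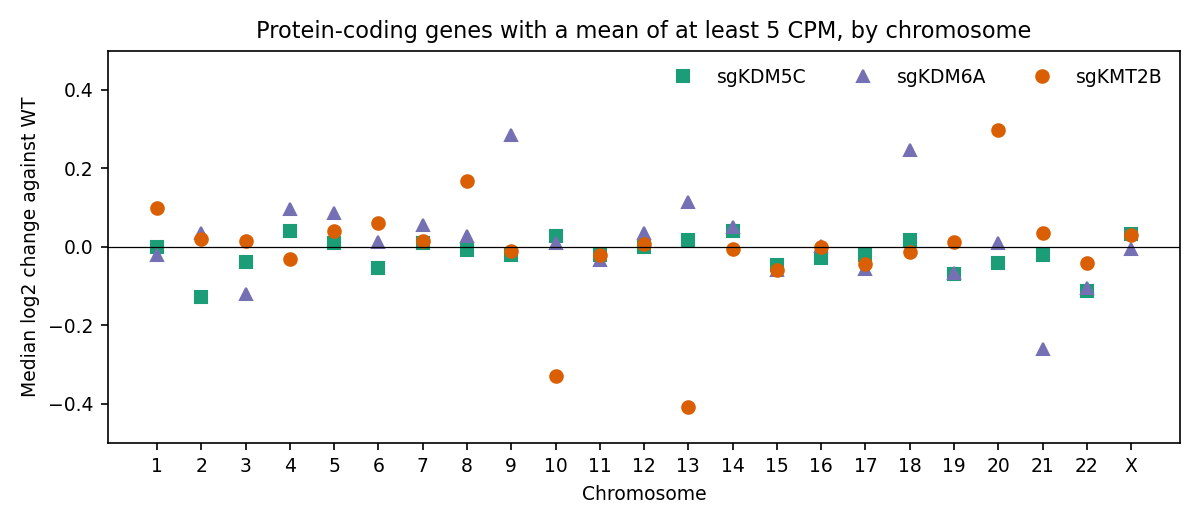
Median log2 change against WT of the protein-coding genes averaging 5 CPM or more on each chromosome, for sgKDM5C (squares), sgKDM6A (triangles) and sgKMT2B (circles). Chromosomes 10 and 13 lie at -0.33 and -0.41 in sgKMT2B, apart from the other chromosomes, whose lowest value in sgKMT2B is -0.06.

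The shift in sgKMT2B ran the whole length of the chromosome. In all 14 windows of 10 Mb the median log2 change was below 0, between -0.43 and -0.21, and each sgKMT2B library alone was also below 0 in all 14. The lowest window was 20 to 30 Mb, with 26 members at 5 CPM or more, and the highest was 110 to 120 Mb with 40. In sgKDM5C the windows ran from -0.10 to 0.14 and 4 were below 0. Windows at 30 to 40, 50 to 60 and 130 to 140 Mb held 15, 10 and 15 members and are thin.

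In sgKDM6A the level changed along the chromosome, and a split into 2 stretches was fitted to it. Medians of the 10 Mb windows ran from 0.10 to 0.41 between 0 and 70 Mb. They ran from -0.04 to 0.05 between 70 and 110 Mb, and from -0.41 to -0.28 beyond. The stretch before the split was thus not at a single level. Ordered by start position, the fitted changes split best between GSTO1 (start 104235356) and GSTO2 (start 104268873), neighbouring genes for enzymes that use glutathione. The 337 members at 5 CPM or more before this point had a median log2 change of 0.10 and the 87 from it to the end had -0.35, a difference of -0.45. The split lowered the summed absolute deviation by 9.52%, while the best splits for sgKMT2B and sgKDM5C lowered it by 0.789% and 0.621%. The libraries of sgKDM6A gave nearly the same place when taken alone: replicate 2 gave GSTO2 as the first gene and replicate 1 the next one, ITPRIP. The position was found from these values, so the difference between the stretches carries no test.

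From GSTO2 onward, 49 of 114 tested members (43.0%) were lower in sgKDM6A and 3 (2.63%) were higher, where 14.6% and 12.6% of all tested genes were. Of the members at 5 CPM or more there, 77 of 87 lay below 0, and the library medians were -0.38 and -0.36. Before GSTO2, 48 of 406 (11.8%) were lower and 88 (21.7%) higher, with library medians of 0.11 and 0.09. Without sgKDM6A replicate 1 the count of lower members past the point was 28 and without replicate 2 it was 31, while the median stayed between -0.42 and -0.33 over the leave-one-out fits. Those fits kept the split where all the libraries had placed it. Because the stretch was picked from these sgKDM6A values, nothing is read from its sgKDM6A counts. The same stretch in sgKMT2B had a median of -0.24, against -0.34 before it, and in sgKDM5C the medians were 0.03 and 0.02.

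**Figure D3:**
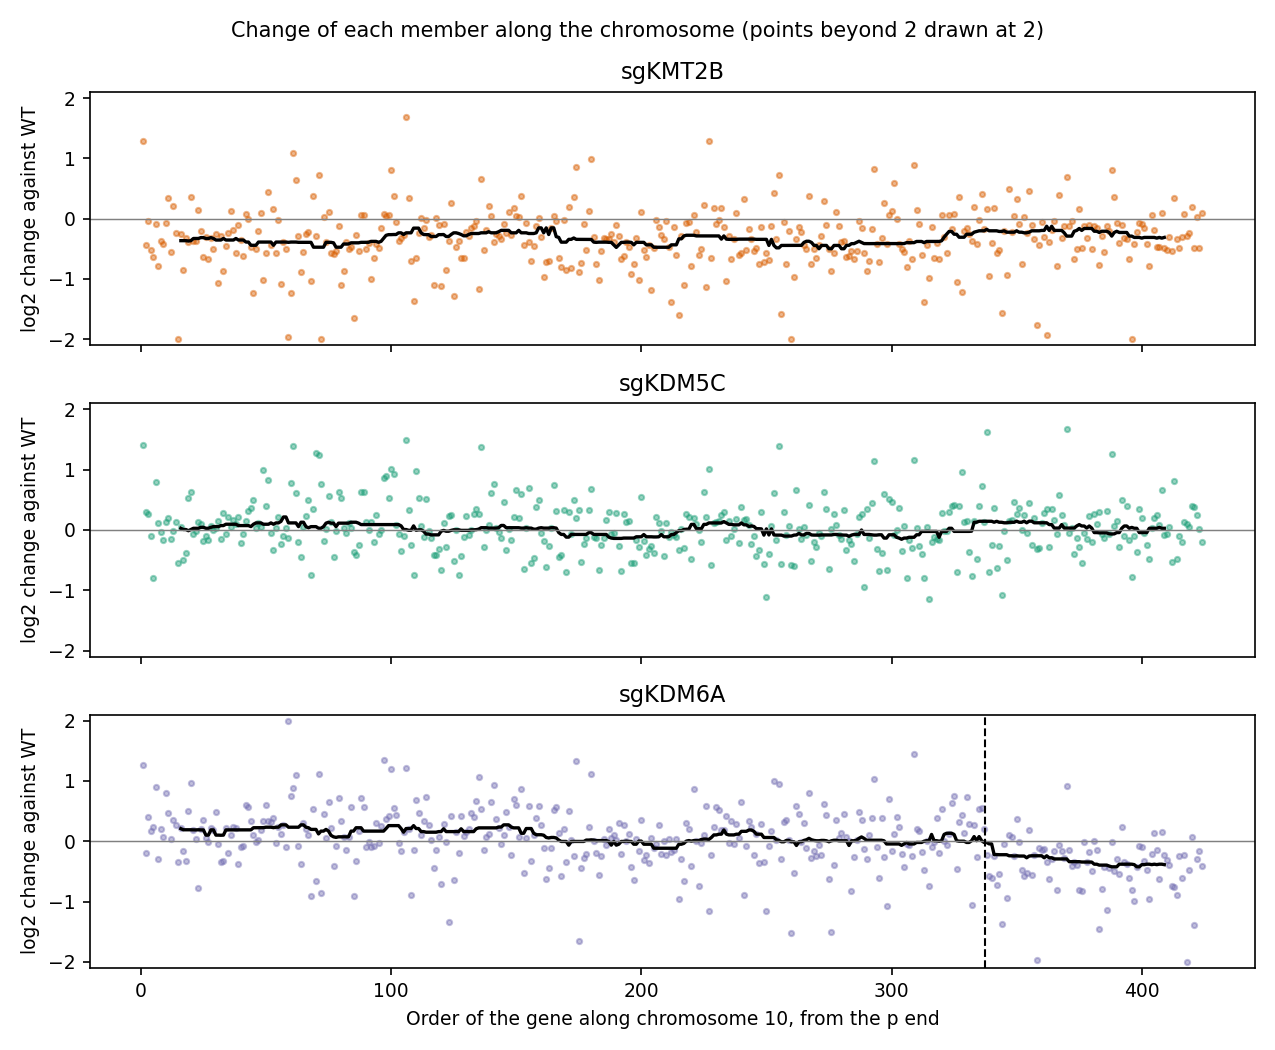
Log2 change against WT of each of the 424 members with a mean of at least 5 CPM (points), in their order along the chromosome, with a running median over 31 genes (line), for sgKMT2B, sgKDM5C and sgKDM6A. The sgKMT2B line stays below 0 throughout, and the sgKDM6A line drops at the dashed line, which marks the split between medians of 0.10 and -0.35.

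Several members past that point, picked after their values were seen, serve as examples of single genes in the lower stretch. PRDX3, a mitochondrial peroxidase, stood at 322 and 336 CPM in WT, 229 and 237 in sgKMT2B, 310 and 288 in sgKDM5C and 256 and 244 in sgKDM6A. Its sgKDM6A libraries lay below those of WT and sgKDM5C without overlap, and it fell by 0.40 on the log2 scale (SE 0.08, adjusted p = 0.00396). TUBGCP2, a part of the complex that nucleates microtubules, fell by 0.48 (SE 0.08, adjusted p = 0.00115) and BUB3, a spindle checkpoint protein, by 0.35 (SE 0.09, adjusted p = 0.0105). The translation initiation subunit EIF3A was at -0.15 (SE 0.11, adjusted p = 0.351) and the fatty acid oxidation enzyme ECHS1 at -0.17 (SE 0.09, adjusted p = 0.18), neither past the threshold. OAT, the ornithine aminotransferase, fell by 0.60 (SE 0.09, adjusted p = 0.000366). FGFR2, a less abundant receptor for fibroblast growth factors, fell further than these, from 47.3 and 46.4 CPM in WT to 15.7 and 18.4 in sgKDM6A (log2 change -1.46, SE 0.12, adjusted p = 4.89e-06). KNDC1, C10orf82 and AFAP1L2 in the same stretch fell further still (log2 changes -2.42, -2.06 and -1.98). The 3 members that rose in the stretch were NANOS1, PLPP4 and ADAM12, each with a mean of at most 5.20 CPM.

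Abundant members in sgKMT2B were mostly below WT, and their values per kilobase of exon give the scale of their levels. PGAM1, the glycolytic phosphoglycerate mutase, had the highest level among the 10 with the largest mean CPM at 321 CPM per kb, and PSAP, the precursor of lysosomal saposins, had 287. PGAM1 stood at 822 and 827 CPM in WT, 619 and 592 in sgKMT2B, 899 and 805 in sgKDM5C and 1025 and 1016 in sgKDM6A. The sgKMT2B libraries were the lowest of all 8, at a log2 change of -0.44 (SE 0.08), and the sgKDM6A libraries were the highest, with a rise of 0.31 (SE 0.08, adjusted p = 0.0130). PSAP stood at 1149 and 1309 CPM in WT, 734 and 745 in sgKMT2B, 862 and 845 in sgKDM5C and 902 and 901 in sgKDM6A. All knockout libraries of PSAP lay below both WT libraries, with log2 changes of -0.73 (SE 0.08) in sgKMT2B, -0.53 (adjusted p = 0.000820) in sgKDM5C and -0.45 (adjusted p = 0.00153) in sgKDM6A.

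The lowest change among these 10 in sgKMT2B was that of HK1, the hexokinase that starts glycolysis. It stood at 460 and 452 CPM in WT, 221 and 245 in sgKMT2B, 392 and 415 in sgKDM5C and 408 and 436 in sgKDM6A. The sgKMT2B libraries were far below all others, at a log2 change of -0.97 (SE 0.09), 1.96-fold below WT. Those of sgKDM5C and sgKDM6A also lay under both WT libraries, but neither change passed the test (-0.18, adjusted p = 0.16, and -0.11, adjusted p = 0.37). ALDH18A1, which makes the precursor of proline, was at -0.68 (SE 0.08), ACTR1A, a dynactin subunit, at -0.66 (SE 0.09), VDAC2, a channel of the outer mitochondrial membrane, at -0.63 (SE 0.09) and NOLC1, a nucleolar phosphoprotein, at -0.61 (SE 0.08). SCD, the desaturase that makes oleate, was at -0.57 (SE 0.12) in sgKMT2B, and it fell further in sgKDM5C, to 462 and 480 CPM from 761 and 1047 in WT (log2 change -0.94, SE 0.12, adjusted p = 0.000238). DDX21, a nucleolar helicase, was at -0.46 (SE 0.10). EIF3A stood apart from the rest at -0.13 (SE 0.11), with 386 and 348 CPM in sgKMT2B inside the WT range of 345 to 455, and its sign turned to 0.093 without WT replicate 1.

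The members furthest below WT in sgKMT2B lay well past the common shift, and most of them were lowly expressed. SLIT1, a guidance cue for axons, stood at 32.9 and 37.7 CPM in WT, 6.79 and 5.75 in sgKMT2B, 22.2 and 24.9 in sgKDM5C and 11.7 and 12.8 in sgKDM6A. The 4 groups did not overlap, and the log2 change was -2.49 (SE 0.16) in sgKMT2B, -0.58 (adjusted p = 0.0124) in sgKDM5C and -1.52 (adjusted p = 1.83e-05) in sgKDM6A. IL15RA, a chain of the interleukin-15 receptor, stood at 12.4 and 13.6 CPM in WT and at 2.01 and 3.11 in sgKMT2B (log2 change -2.34, SE 0.23). Its other knockout libraries held 8.63 to 11.1 CPM, and neither of those changes passed the test (adjusted p = 0.0702 in sgKDM5C and 0.219 in sgKDM6A). MYO3A, a myosin of hair cells and photoreceptors, was at -2.19 (SE 0.24) in sgKMT2B and rose in sgKDM5C (log2 change 0.76, adjusted p = 0.0188), with 10.6 and 10.9 CPM against 6.07 and 6.69 in WT. In sgKDM6A it fell to 3.05 and 3.97 CPM (-0.86, adjusted p = 0.011).

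PLXDC2, a plexin-domain membrane protein, went in opposite directions in 2 knockouts. It stood at 1.36 and 1.30 CPM in WT, 0.201 and 0.473 in sgKMT2B, 1.38 and 1.06 in sgKDM5C and 18.3 and 17.4 in sgKDM6A. It rose in sgKDM6A by 3.73 on the log2 scale (SE 0.28, adjusted p = 1.33e-06) and was at -1.97 (SE 0.39) in sgKMT2B. Its mean of 5.18 CPM passed the 5 CPM minimum only through the sgKDM6A libraries. The sgKMT2B value therefore rests on few counts in both groups compared. The remaining members of this set of 10 were the homeobox gene NKX1-2 at -2.08, ATRNL1 at -1.93, the actin-filament associated AFAP1L2 at -1.77, the membrane-cytoskeleton linker SVIL at -1.65, the photoreceptor cadherin CDHR1 at -1.60 and the metalloprotease TLL2 at -1.59. AFAP1L2, SVIL, CDHR1 and NKX1-2 also fell in sgKDM6A, with adjusted p from 5.62e-05 to 0.0254.

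CXCL12, the chemokine that signals through CXCR4, had no count in sgKMT2B. Its raw counts were 49 and 56 in WT, 0 and 0 in sgKMT2B, 194 and 212 in sgKDM5C and 54 and 63 in sgKDM6A. No other group was without reads. The pooled WT level was 2.65 CPM, and with 3 counts over both sgKMT2B libraries as the floor, or 0.0597 CPM, the sgKMT2B level was at least 44.4-fold lower, a bound that covers counting error only. In sgKDM5C it rose (log2 change 1.44, SE 0.31, adjusted p = 0.00575).

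A minority of members lay above their WT level in sgKMT2B. Of the 424 at 5 CPM or more, 89 (21.0%) lay above 0 in sgKMT2B, and 21 were called higher and 192 lower. Both sgKMT2B libraries exceeded both WT libraries for 49 members (11.6%, against 35.0% of all tested genes at this level), and both lay under both WT libraries for 280 (66.0%, against 34.6%). Nothing is read from these shares, since they come from the contrast that chose the chromosome.

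The sgKMT2B libraries that chose the chromosome were also set against the other knockouts, so nothing is read from the shares here either. The counts against all 6 others include the WT libraries. The mean of sgKDM5C and sgKDM6A served as the reference, a choice made after the data were seen. Over all 424 members the median against that reference was -0.33, with 359 below it, and genes off the chromosome had 0.04. The 89 members above 0 against WT had a median of -0.09 against that reference, and 32 of them lay above it. Of the 89, 82 also lay above 0 in sgKDM5C and 69 in sgKDM6A, where 46.9% and 49.3% of the 424 lay below 0. These changes share the WT libraries with sgKMT2B, so a WT value that is low by sampling lifts all of them together. No sharing between knockouts is read from the counts. Both sgKMT2B libraries exceeded all 6 others for 5 members (1.18%, against 13.6% of all tested genes at this level) and lay under all 6 for 190 (44.8%, against 13.9%).

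ZMYND11, a reader of H3.3 with a methylated lysine 36, is an example of a member above WT in every knockout. It stood at 16.2 and 14.4 CPM in WT, 38.8 and 36.3 in sgKMT2B, 45.7 and 36.0 in sgKDM5C and 36.2 and 37.1 in sgKDM6A. The knockouts overlapped with each other and not with WT. The log2 change was 1.29 (SE 0.14) in sgKMT2B, 1.41 (adjusted p = 5.16e-05) in sgKDM5C and 1.26 (adjusted p = 4.89e-05) in sgKDM6A. ZNF239, a zinc finger gene, followed the same form, with 4.01 and 2.99 CPM in WT, 12.5 and 10.3 in sgKMT2B, 11 and 8.93 in sgKDM5C and 9.08 and 7.43 in sgKDM6A. Its log2 change of 1.69 (SE 0.22) in sgKMT2B was the highest of the members at 5 CPM or more, and it rose by 1.49 in sgKDM5C (adjusted p = 0.000672) and by 1.22 in sgKDM6A (adjusted p = 0.00164).

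DDIT4, a stress-induced inhibitor of mTORC1, stood at 67.0 and 75.1 CPM in WT, 152 and 130 in sgKMT2B, 131 and 96.1 in sgKDM5C and 175 and 134 in sgKDM6A. Every knockout library lay above both WT libraries, with log2 changes of 0.99 (SE 0.16) in sgKMT2B, 0.68 (adjusted p = 0.00755) in sgKDM5C and 1.12 (adjusted p = 0.000217) in sgKDM6A. HPS6, a subunit of a complex needed for lysosome-related organelles, was at 0.89 (SE 0.15) in sgKMT2B and rose further in sgKDM6A, by 1.45 (adjusted p = 2.17e-05). The nucleoside transporter SLC29A3 was at 0.85 (SE 0.19) in sgKMT2B and rose by 1.33 in sgKDM6A (adjusted p = 0.000222), and in sgKDM5C it did not pass the test (0.20, adjusted p = 0.473). SLF2, which helps recruit the SMC5/6 complex to DNA, was at 0.81, the zinc finger gene ZNF37A at 0.81 and MIR1915HG, a host gene of a microRNA, at 1.09. All 3 rose in sgKDM5C and sgKDM6A, with log2 changes from 0.88 to 1.39 and adjusted p from 0.000277 to 0.00366. HTRA1, a secreted serine protease, was at 0.80 (SE 0.12) in sgKMT2B and rose by 1.26 in sgKDM5C (adjusted p = 4.29e-05), while in sgKDM6A it was at -0.02 (adjusted p = 0.921).

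ACTA2, smooth muscle actin, was the member at 5 CPM or more that most exceeded the other knockouts. It stood at 6.61 and 5.33 CPM in WT, 14.7 and 14.6 in sgKMT2B, 12.1 and 12.1 in sgKDM5C and 2.14 and 3.22 in sgKDM6A. The sgKMT2B libraries were the highest of the 8 and the sgKDM6A libraries the lowest. The log2 change was 1.28 (SE 0.20) in sgKMT2B, it rose by 1.01 in sgKDM5C (adjusted p = 0.00397) and it fell by 1.16 in sgKDM6A (adjusted p = 0.00214). ACTA2 overlaps STAMBPL1 and FAS on the opposite strand, and since the strand setting of the counting is not given, their reads cannot be told apart where they overlap. STAMBPL1 itself was at -1.13 and the death receptor FAS at 0.66 in sgKMT2B. The other 4 members at 5 CPM or more with both sgKMT2B libraries above all 6 others, named after their values were seen, were the apoptosis-linked translation inhibitor PDCD4 at 0.49, the homeobox gene LBX1 at 0.59, C10orf88 at 0.35 and the receptor kinase GRK5 at 0.16. PDCD4 held 62.5 and 60.7 CPM in sgKMT2B against 42.6 to 49.97 in the other libraries.

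**Figure D4:**
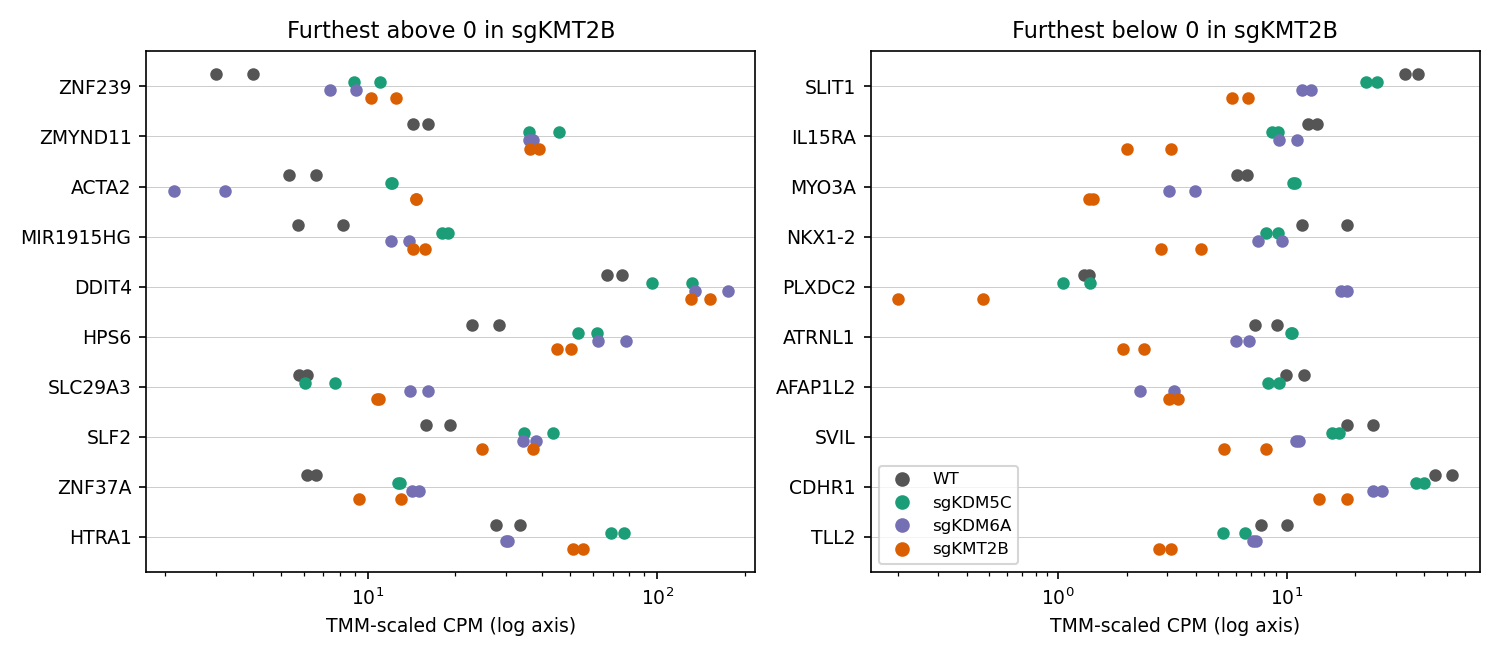
TMM-scaled CPM (log axis) in each library for the 10 members furthest above 0 (left) and the 10 furthest below 0 (right) in sgKMT2B, with 1 point a library coloured by group. On the left most knockout libraries lie above WT together, ACTA2 being an exception with sgKDM6A at 2.14 and 3.22 CPM; on the right the sgKMT2B points lie lowest for 9 of 10 genes and overlap those of sgKDM6A for AFAP1L2.

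Genes with a ZNF symbol (zinc finger genes) were taken as a group after the values were seen. Of the 11 at 5 CPM or more, 9 lay above 0 in sgKMT2B with a median log2 change of 0.20, against -0.33 for the other 413 members. In sgKDM5C 7 rose and none fell, with a median of 0.89, and in sgKDM6A 6 rose and none fell, with a median of 0.42. Of all tested genes, 11.1% rose in sgKDM5C and 12.6% in sgKDM6A. Most genes with this symbol encode DNA-binding proteins with arrays of C2H2 fingers, and ZNF33A and ZNF33B are near-identical copies whose counts are uncertain. The exceptions in sgKMT2B were ZNF22 and ZNF503. ZNF22 stood at 23.2 and 16.7 CPM in WT, 12.4 and 13.2 in sgKMT2B, 40.9 and 37.9 in sgKDM5C and 32.7 and 31.9 in sgKDM6A. It was therefore above WT in both other knockouts and below it in sgKMT2B, at -0.65 (SE 0.16). ZNF503, a transcriptional repressor of development, stood at 409 and 379 CPM in WT, 177 and 169 in sgKMT2B, 352 and 305 in sgKDM5C and 418 and 398 in sgKDM6A. The sgKMT2B level was 2.27-fold below WT (log2 change -1.19, SE 0.09), and it did not pass the test in sgKDM5C (-0.26, adjusted p = 0.0563) or sgKDM6A (0.05, adjusted p = 0.716). ZNF503 has an antisense neighbour, ZNF503-AS2.

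The comparisons of sgKDM5C and sgKDM6A with WT did not choose the chromosome, and in them the members moved in both directions. In sgKDM5C, 81 of 520 tested members rose (15.6%) and 62 fell (11.9%), where 11.1% and 11.5% of all tested genes did, and the median was 0.06. In sgKDM6A, 91 rose (17.5%) and 97 fell (18.7%), where 12.6% and 14.6% of all genes did, and the median was 0.01. Both share the WT libraries with the sgKMT2B comparison. The counts depended on single libraries: in sgKDM5C, 48 rose without WT replicate 2, 41 rose and 30 fell without sgKDM5C replicate 1, and 53 rose without sgKDM5C replicate 2. In sgKDM6A, 47 rose and 55 fell without sgKDM6A replicate 1.

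Among members that reached 5 CPM in the higher group and had both knockout libraries on one side of both WT libraries, the largest increases in sgKDM5C were in NANOS1, GSTO2, ZNF239, CXCL12 and ZMYND11. NANOS1, an RNA-binding regulator of germ cells, stood at 2.73 and 2.66 CPM in WT and at 7.58 and 9.72 in sgKDM5C (log2 change 1.68, SE 0.23, adjusted p = 0.000386). It overlaps EIF3A on the opposite strand. GSTO2, a glutathione transferase, stood at 7.39 and 10.3 CPM in WT and at 27.1 and 27.2 in sgKDM5C (1.63, SE 0.19, adjusted p = 0.000151), and in sgKDM6A and sgKMT2B its libraries held 6.36 to 10.2 CPM. The rise of GSTO2 was thus not seen in the other knockouts, whose changes were -0.22 (adjusted p = 0.444) and 0.15.

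By the same limits, the largest decreases in sgKDM5C included NFKB2, a subunit of the noncanonical NF-κB pathway. It stood at 119 and 118 CPM in WT, 54.9 and 64.4 in sgKMT2B, 46.1 and 61.6 in sgKDM5C and 63.3 and 77.9 in sgKDM6A. Every knockout library lay below WT, with falls of 1.14 in sgKDM5C (adjusted p = 0.000209) and 0.75 in sgKDM6A (adjusted p = 0.00201) and a log2 change of -0.99 in sgKMT2B. The phosphatase DUSP5 fell by 1.09 (adjusted p = 0.0217) and the urokinase gene PLAU by 1.04 (adjusted p = 0.0259), but neither passed without WT replicate 2 (adjusted p = 0.289 and 0.147) or without either sgKDM5C library.

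In sgKDM6A, with the same limits, the largest increases after PLXDC2 were HPS6, the Wnt receptor FZD8, SLC29A3 and ZMYND11. FZD8 stood at 9.38 and 7.47 CPM in WT, 7.35 and 10.6 in sgKMT2B, 16 and 14.9 in sgKDM5C and 22.0 and 21.3 in sgKDM6A, and rose by 1.35 in sgKDM6A (SE 0.19, adjusted p = 0.000246). The largest decreases within those limits were led by KNDC1, a guanine nucleotide exchange factor of neurons, which stood at 16.3 and 19.95 CPM in WT and at 2.30 and 4.39 in sgKDM6A (log2 change -2.42, SE 0.25, adjusted p = 2.29e-05). C10orf82 fell by 2.06 (adjusted p = 9.44e-05) and AFAP1L2 by 1.98 (adjusted p = 5.62e-05), and like KNDC1 both lie in the stretch past GSTO2. CDH23, the cadherin of hair-cell tip links, lies before it and fell from 42.3 and 43.9 CPM to 14 and 13.3 (log2 change -1.66, SE 0.14, adjusted p = 4.05e-06). GDF10, a ligand of the TGF-β family, fell by 1.62 (adjusted p = 0.000612).

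Lists of members by function, written with earlier results of these data known, all had a median below 0 in sgKMT2B, like the members as a whole at -0.32. Their counts stand beside 14.5% lower and 13.7% higher of all tested genes in sgKMT2B and 40.2% lower and 5.19% higher of all tested members, and nothing is read from the sgKMT2B counts, which come from the contrast that chose the chromosome. In sgKDM5C 11.1% of all tested genes rose and 11.5% fell, and in sgKDM6A 12.6% rose and 14.6% fell. Among genes of glycolysis and sugar metabolism, 6 of 11 tested were lower and none higher, with a median of -0.54. Besides HK1 and PGAM1 they included the platelet phosphofructokinase PFKP at -0.79 (SE 0.09), with 325 and 282 CPM in WT and 173 and 177 in sgKMT2B. In sgKDM5C 1 of the 11 fell, and in sgKDM6A PGAM1 rose and PFKP fell (-0.29, adjusted p = 0.0364).

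The mitochondrial list held 40 tested genes, of which 23 were lower and none higher in sgKMT2B (median -0.38), where 40.2% of all members were lower. The list also counts the pyrophosphatase PPA1, at -0.65 (SE 0.10), although its protein is cytosolic. In sgKDM5C 3 rose and 8 fell, and in sgKDM6A 6 rose and 6 fell, shares near those of all genes (12.6% and 14.6%). The fallers in sgKDM6A included PRDX3 and OAT from the stretch past GSTO2. TFAM, which packages and transcribes mitochondrial DNA, rose in sgKDM6A (0.66, adjusted p = 0.00569) and was at -0.04 in sgKMT2B. Of 15 genes of lipid and sterol metabolism, 10 were lower and none higher in sgKMT2B (median -0.57). In sgKDM5C 5 of them fell and 2 rose, the fallers being SCD, PSAP, the isoprenoid enzyme IDI1 (-0.79, adjusted p = 0.0130), the lysosomal lipase LIPA (-0.58, adjusted p = 0.00262) and ERLIN1. In sgKDM6A 2 rose and 1 fell.

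Genes of DNA replication and repair had 10 of 23 lower and 1 higher in sgKMT2B (median -0.26), the higher one being the crosslink repair nuclease DCLRE1A at 0.46. MMS19, a protein that delivers iron-sulfur clusters, was at -0.76 (SE 0.11), and the kinetochore protein ZWINT at -0.22 (SE 0.09). In sgKDM5C 2 rose and 2 fell, and in sgKDM6A 3 rose and 2 fell, against all-gene shares of 11.1% and 11.5% in sgKDM5C and 12.6% and 14.6% in sgKDM6A. In chromatin and transcription 17 of 43 were lower and 2 higher in sgKMT2B (median -0.21), the higher ones being ZNF37A and ZNF518A, and the RNA polymerase III subunit POLR3A was at -0.50 (SE 0.09). In sgKDM5C 10 rose and 5 fell, and in sgKDM6A 9 rose and 8 fell. TET1, which oxidises methylcytosine, was below WT in all 3 knockouts, with falls of 0.64 in sgKDM5C (adjusted p = 0.00852) and 0.52 in sgKDM6A (adjusted p = 0.0197) and a value of -0.43 in sgKMT2B. The H3K9 methyltransferase SUV39H2 rose in sgKDM6A (0.57, adjusted p = 0.0108) and was at 0.00 in sgKMT2B.

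In RNA processing and translation 14 of 35 were lower and none higher in sgKMT2B (median -0.30). In sgKDM5C 2 rose and 7 fell, among them the nucleolar proteins DDX21 (-0.47, adjusted p = 0.00513) and NOLC1 (-0.40, adjusted p = 0.00397), and in sgKDM6A 9 rose and 3 fell. The all-gene shares were 11.1% and 11.5% in sgKDM5C and 12.6% and 14.6% in sgKDM6A. For ubiquitin and membrane traffic the sgKMT2B counts were 17 lower and 1 higher of 36 (median -0.29), with GDI2, which recycles Rab proteins, at -0.55 (SE 0.10) and the Arf activator GBF1 at -0.45 (SE 0.09). In sgKDM5C 6 rose and 2 fell, and in sgKDM6A 10 rose and 4 fell, with the small GTPase RAB18 and the kinesin KIF5B rising in both. Growth signalling and death had 11 of 35 lower and 3 higher in sgKMT2B (median -0.25), the higher ones being DDIT4, FAS and PDCD4. In sgKDM5C 8 rose and 4 fell and in sgKDM6A 5 rose and 6 fell.

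Adhesion and cytoskeleton genes had a lower median in sgKMT2B than the members as a whole, at -0.61, with 21 of 30 lower and 2 higher. The annexin ANXA11 was at -0.47 (SE 0.09), the LIM protein PDLIM1 at -0.73 (SE 0.10) and VCL, the focal adhesion protein vinculin, at -0.76 (SE 0.14). VCL and PDLIM1 fell in the other knockouts too, VCL by 0.54 in sgKDM5C (adjusted p = 0.0121) and by 0.64 in sgKDM6A (adjusted p = 0.00401). The higher ones were ACTA2 and the netrin receptor UNC5B (0.37), which also rose in sgKDM5C (0.50, adjusted p = 0.00313). In all, 6 rose and 6 fell in sgKDM5C, where 11.1% and 11.5% of all genes did, and 3 rose and 12 fell in sgKDM6A, where 12.6% and 14.6% did. The 16 tested neuronal and hormone genes had the lowest median of the lists in sgKMT2B, -0.68, with 6 lower and none higher, and in sgKDM6A 7 fell and none rose (median -0.56). CNNM2, a magnesium transport protein, was at -1.05 (SE 0.13) in sgKMT2B and fell in both other knockouts. DPYSL4, a member of the collapsin response family, rose in sgKDM5C (0.81, adjusted p = 0.000947) and fell in sgKDM6A (-0.76, adjusted p = 0.00108), and was at 0.34 (SE 0.13) in sgKMT2B. No list was tested as a set.

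**Figure D5:**
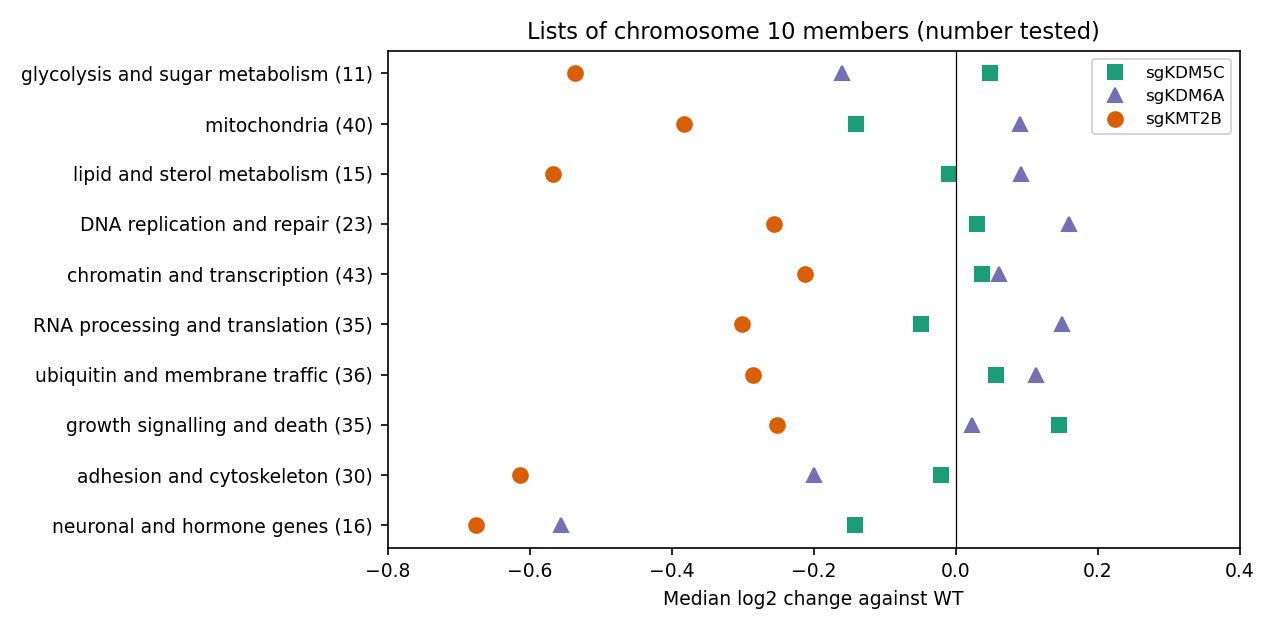
Median log2 change against WT of the tested chromosome 10 members of each list (number tested in parentheses), for sgKDM5C (squares), sgKDM6A (triangles) and sgKMT2B (circles). All 10 sgKMT2B medians lie below 0, from -0.68 to -0.21, while those of sgKDM5C lie between -0.14 and 0.14 and that of neuronal and hormone genes in sgKDM6A is at -0.56.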

How the data were processed

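Poly(A) RNA of HEK293T cells was sequenced as read pairs in 8 libraries, 2 for each of the 4 groups, which were taken from the labels. The authors deposited raw read counts per Ensembl gene, and per the submitters' processing notes STAR, HTSeq 0.11.2 and the GRCh38 (hg38) build were used. Not given in the sources used here are the STAR version, the annotation release and the strand setting, so genes that overlap on opposite strands cannot be told apart there. Of 60617 identifiers, 60261 had a symbol and 58542 were in GENCODE v29, which gave positions and biotypes. The members and lists were chosen with earlier results of these data known.

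Counts were fitted with edgeR 4.0.16 in R 4.3.3 (glmQLFit and glmQLFTest on all 8 libraries, 1 coefficient a group, 4 residual degrees of freedom). TMM factors lay between 0.965 and 1.056, filterByExpr by group left 17527 genes, and Benjamini-Hochberg adjustment ran over all of them, with calls at an adjusted p under 0.05. The fit was tested on simulated data. CPM are TMM-scaled, and per-library log2 CPM used a prior count of 1. Replicates differed by more than sampling noise (chi-square per degree of freedom 7.57 to 15.3), and each library counted as 1 replicate.

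Named genes were the 10 members with the largest mean CPM, the 10 furthest to each side of the members' median in sgKMT2B with a mean of at least 5 CPM (those above lying past 0), the 5 largest increases and decreases called in sgKDM5C and in sgKDM6A with at least 5 CPM in the higher group and no overlap with the WT libraries, and up to 3 of the most abundant members of each list. Others are named as examples, chosen after their values were seen, and a few results are not reported here. Alternatives covered DESeq2 1.42.0 and its size factors, upper-quartile factors, TMM factors without chromosome 10, other filters, a fit on the 2 groups compared, a replicate block and leaving out each library.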

Additional observations from a re-analysis of the deposited data

How the results depend on the processing

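The median log2 change of the members in sgKMT2B stayed below 0 under every alternative run, TMM factors without chromosome 10 included. Leaving out each library in turn gave -0.34 to -0.30 for that median, 11 to 33 members higher (11 without sgKMT2B replicate 1, 17 without replicate 2) and 129 to 186 lower (129 without sgKMT2B replicate 1), and 79 to 103 members above 0. In sgKDM5C it gave a median of 0.04 to 0.08, with 41 to 87 higher and 30 to 59 lower, and in sgKDM6A a median of -0.0073 to 0.0099, with 47 to 82 higher and 55 to 90 lower. Past the sgKDM6A split it gave 28 to 42 lower and a median of -0.42 to -0.33. The position of that split was not refitted. The sgKDM5C median was 0.091 with upper-quartile factors and 0.023 over members at 5 CPM or more. With counts of protein-coding genes as the denominator the members' shares were 2.56% in sgKMT2B against 3.27% in WT, 3.37% in sgKDM6A and 3.35% in sgKDM5C. At a mean of at least 20 CPM, 54 of 320 members lay above 0 in sgKMT2B (16.9%). With a lone library left in a group, that library is assumed to vary like the other groups.

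Whether the replicate numbers pair the samples is not given. Correlations of same-numbered deviations ran from 0.07 to 0.16 between knockouts and from -0.02 to 0.01 between WT and a knockout. A block for the replicate number raised the counts of calls in each comparison. With the replicate block, 36 members were higher and 227 lower in sgKMT2B (median -0.31), 98 and 73 in sgKDM5C (0.05), and 105 and 105 in sgKDM6A (0.01).

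Of 600 values of named genes under the alternatives, 589 kept their direction and their side of the threshold. EIF3A in sgKMT2B turned to 0.093 without WT replicate 1 and passed, at -0.31, without WT replicate 2. Calls were lost for SLF2 and ZNF37A without sgKMT2B replicate 1, for DDX21 without sgKMT2B replicate 2, and for DUSP5 and PLAU in sgKDM5C without WT replicate 2 or either sgKDM5C library. The cause was not tested. Depth limits members of few counts, and 54 were not tested.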

Other observations

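The chromosome 10 genes outside the rule also had medians below 0 in sgKMT2B. Of 158 tested genes that are not protein-coding, 104 lay below 0 with a median log2 change of -0.21, and 17 were lower and 1 higher. Of the 24 tested protein-coding genes left out by symbol, 18 lay below 0 with a median of -0.49, and 12 were lower and 1 higher. Of all tested genes, 14.5% were lower and 13.7% higher in sgKMT2B. Nothing is read from these counts, since they come from the contrast that chose the chromosome. In sgKDM5C the medians were 0.15 and 0.39.

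SNCG, the gene of gamma-synuclein, had the largest increase of any tested member in sgKMT2B but was too scarce for the 5 CPM minimum. It stood at 1.16 and 0.845 CPM in WT, 0.583 and 0.151 in sgKDM5C, 0.159 and 0.0357 in sgKDM6A, but at 9.56 and 12.1 in sgKMT2B. The log2 change was 3.4 (SE 0.41) in sgKMT2B, and it fell in sgKDM6A (-3.37, SE 0.66, adjusted p = 0.0025). MMRN2, which surrounds it on the opposite strand (chromosome 10, 86935540 to 86969481, GRCh38), was at 1.81 in sgKMT2B with 2.13 and 2.68 CPM, and its reads cannot be told apart from those of SNCG. GPR158 and PHYHIPL had 0 counts in both WT libraries. GPR158, an orphan receptor, had 36 and 20 counts in sgKDM5C, 1 and 1 in sgKDM6A and none in sgKMT2B. PHYHIPL had 18 and 19 counts in sgKDM6A, 9 and 1 in sgKDM5C, and 0 and 1 in sgKMT2B.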
